A study of Mus musculus with 21 samples.

Results

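Iron handling genes of the iron-responsive element (IRE) system were followed across the ribosome-bound and total RNA of the E14.5 mouse forebrain and kidney. They include mRNAs that carry an IRE and the genes of the proteins that bind it. The 7 genes, out of 23827 rows in each table, were taken by symbol: the ferritin subunits Fth1 and Ftl1, the iron exporter Slc40a1, the importers Tfrc and Slc11a2, and the iron regulatory proteins Aco1 and Ireb2. Each has 1 row, and all 7 had reads in all 21 libraries and entered every test. In TRAP (translating ribosome affinity purification), an mCherry-tagged Rpl10a, a protein of the large ribosomal subunit, is switched on by Cre in chosen cells, and the RNA held by the tagged ribosomes (the translatome) is sequenced. There were 7 groups of 3 libraries, all from E14.5 embryos heterozygous both for Gt(ROSA)26Sor-mCherry-Rpl10a and for a Cre driver. The transcriptome (total RNA) and the translatome of the forebrain, and both of the kidney, came from Sox2Cre+/- embryos, in which the driver is active in the cells that form the embryo. The endothelial cell (EC) translatomes of brain and kidney came from Cdh5CreERT2+/- embryos, in which an inducible Cre stands under the promoter of an endothelial cadherin. Tamoxifen, which activates this Cre, was given by gavage before the embryos were collected. The Emx1 translatome came from Emx1Cre+/- forebrain, whose driver marks the dorsal telencephalic lineage. The brain samples included part of the diencephalon, and tissue of more than 1 embryo was pooled in some samples. Every group of bound RNA is therefore defined by its Cre driver, and no total RNA of the EC or Emx1 lineages was analysed here.

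Cells regulate iron largely after transcription. When iron is scarce, the regulatory proteins encoded by Aco1 (which with an iron-sulphur cluster is the cytosolic aconitase) and Ireb2 bind the IRE, a short hairpin in mRNA. Bound near the 5′ end they hold back ribosomes, as on the ferritin and ferroportin mRNAs, and bound in the 3′ untranslated region (UTR) they protect the mRNA from decay, as on the transferrin receptor mRNA. In brain, endothelial cells form the barrier that iron has to cross, taking it up from transferrin on the blood side.

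The hairpins are shown because their place, before or after the coding part, is the feature by which these mRNAs are known to differ in control. Transcripts of GENCODE vM21 on GRCm38 were searched on their own strand for the loop CAGTGN with 5 bases on each side that can pair (G with T allowed) and an unpaired C before the stem. All 5 pairs were present in 5′ UTRs of 28 of 20831 genes (0.134%) and in 3′ UTRs of 126 of 20911 genes (0.603%). Below, 30 bases are given with the 6 bases of the loop in capitals, written as DNA and read along the mRNA.
Fth1, 5′ UTR, chr19:9982732-9982761, plus strand: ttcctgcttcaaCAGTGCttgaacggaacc
Ftl1, 5′ UTR, chr7:45459778-45459807, minus strand: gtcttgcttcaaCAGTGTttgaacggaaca
Slc40a1, 5′ UTR, chr1:45925464-45925493, minus strand: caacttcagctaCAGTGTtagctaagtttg
Tfrc, 3′ UTR, chr16:32631219-32631248, plus strand: aattatcggaagCAGTGCcttccataatta
Tfrc, 3′ UTR, chr16:32631598-32631627, plus strand: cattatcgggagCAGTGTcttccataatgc
Tfrc, 3′ UTR, chr16:32631663-32631692, plus strand: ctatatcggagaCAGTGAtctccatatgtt
Tfrc, 3′ UTR, chr16:32631710-32631739, plus strand: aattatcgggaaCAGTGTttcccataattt
Slc11a2, 3′ UTR, chr15:100395152-100395181, minus strand: agccatcagagcCAGTGTgtttctatggtt
Both ferritin mRNAs and Slc40a1 held 1 match in the 5′ UTR, and Tfrc held 4 in the 3′ UTR. The Slc11a2 hairpin had 4 of the 5 pairs and lay only in the isoform Slc11a2-205. Aco1 (GRCm38 chromosome 4, 40143265 to 40199009) and Ireb2 (chromosome 9, 54862658 to 54912534) held no match to these letters. The row of Slc11a2 sums its isoforms, so mRNAs with and without the hairpin were not separated.

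**Figure D1:**
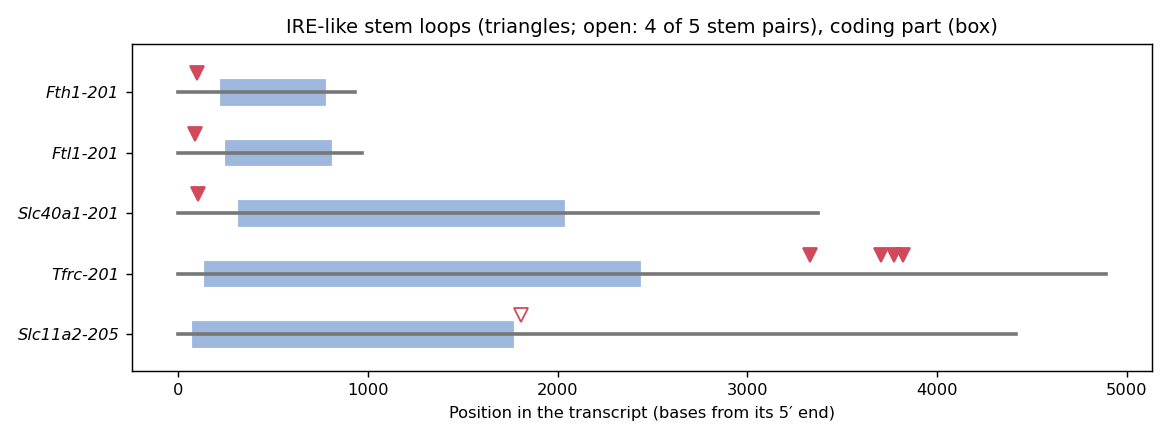
Position of the IRE-like hairpins along 5 transcripts, in bases from the 5′ end; lines are transcripts, boxes the coding part, filled triangles loops with 5 of 5 stem pairs and the open triangle the loop with 4 of 5. The hairpins of Fth1, Ftl1 and Slc40a1 lie ahead of the coding part and those of Tfrc and Slc11a2 behind it.

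Between 21760652 and 79231692 reads were counted per library. Levels are RPKM (reads scaled to transcript length and library size), with the SD of 3 libraries. All 12 endothelial markers were higher in each EC translatome than in the translatome of its organ, with summed levels of 3173 to 3291 RPKM in brain EC and 2627 to 3080 RPKM in kidney EC. The 9 neural markers summed to 465 to 589 RPKM in brain EC and to 15.4 to 17.0 RPKM in kidney EC, against 2543 to 2574 RPKM in the brain translatome. Brain EC libraries shared one sequencing lane and kidney EC libraries another, so that lane and organ cannot be told apart in that comparison. No lane held a transcriptome and a translatome group in replicate.

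Fth1 and Ftl1 had the highest levels of the 7 genes in all 7 groups, and the order of the groups differed from gene to gene. Fth1 was highest in brain EC (551 to 616 RPKM), followed by the kidney transcriptome (356 to 420 RPKM) and the brain transcriptome (298 to 346 RPKM), and these 3 did not overlap. Its Emx1 and brain translatome levels overlapped at 138 to 153 RPKM, as did its kidney EC and kidney translatome levels at 104 to 133 RPKM. Ftl1 was instead highest in the brain transcriptome (335 to 360 RPKM) and lowest in the kidney translatome (68.4 to 86.3 RPKM), where its level overlapped with that of kidney EC. Slc40a1 was the gene whose 7 groups all stood apart, in the order brain EC, kidney transcriptome, kidney translatome, kidney EC, brain transcriptome, brain translatome and Emx1, from 73.8 ± 3.51 down to 0.915 ± 0.0992 RPKM. Tfrc was highest in the kidney transcriptome (44.3 to 45.4 RPKM) and lowest in Emx1 (6.42 to 6.71 RPKM). Brain EC overlapped with the brain transcriptome for Tfrc, and so did the brain transcriptome with the kidney translatome, and kidney EC with the brain translatome. Slc11a2 ranged from 9.13 ± 0.0973 RPKM in Emx1 to 21.4 ± 0.308 RPKM in the kidney transcriptome. Aco1 was highest in the kidney transcriptome (36.4 ± 0.705 RPKM) and lowest in kidney EC (15.6 ± 1.13 RPKM). Ireb2 ranged from 25.3 ± 1.55 RPKM in brain EC to 50.4 ± 1.76 RPKM in the brain transcriptome, and the transcriptomes of both organs overlapped.

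**Figure D2:**
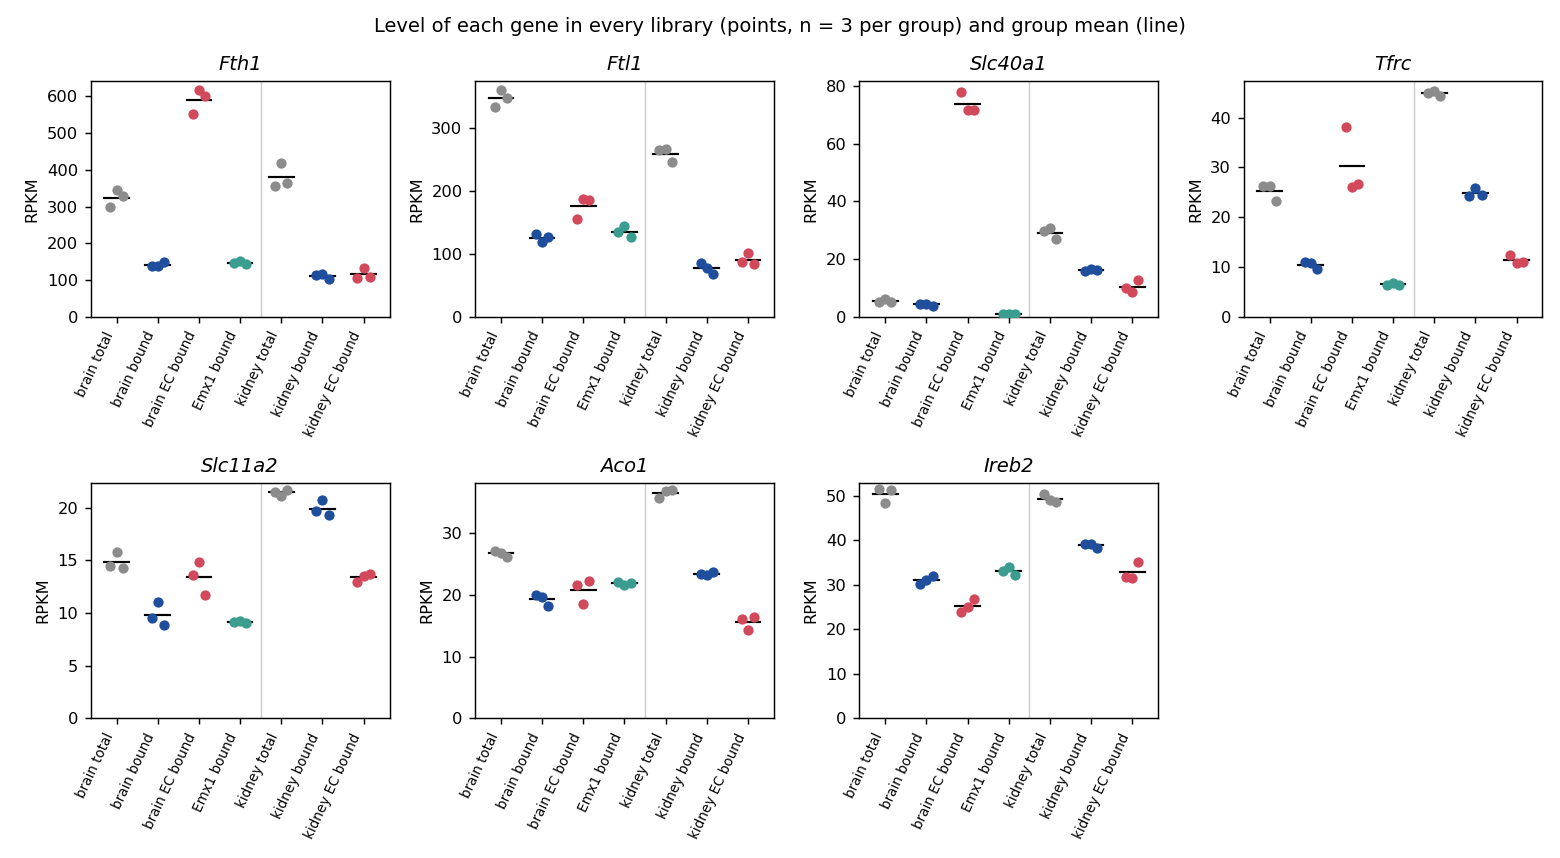
RPKM of each of the 7 genes in every library (points, 3 per group) with the group mean (line), on linear axes from 0. Fth1 and Slc40a1 are highest in brain EC, at 551 to 616 and 71.8 to 77.9 RPKM, whereas Ftl1, Tfrc, Slc11a2, Aco1 and Ireb2 are highest in total RNA.

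The translatome was compared with the transcriptome of the same organ to ask how much of each mRNA was recovered with tagged ribosomes, relative to other mRNAs. The authors name method bias as a possible partial source of transcriptome to translatome differences, such as unequal tagged protein levels between cell types. The part of such bias in the values below was not tested. Counts were tested with edgeR over all rows, and a gene was called at an adjusted p under 0.001. In forebrain, 6 of the 7 genes were lower in the translatome, none was higher and Slc40a1 was not called, where 18.5% of all 19446 rows tested were lower. In kidney, 6 were lower, none was higher and Slc11a2 was not called, where 15.8% of all 19336 rows were lower. The median log2 fold change of the 7 genes was -0.67 in brain and -0.85 in kidney, against -0.01 and -0.03 over all rows. All 7 genes had 3 translatome libraries below all 3 transcriptome libraries in both organs, with no overlap. The share of all rows separated in this way was not counted.

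The ferritin subunits, which together form the shell that stores iron, had the largest decreases, apart from Tfrc in brain. Fth1 (GRCm38 chromosome 19, 9980600 to 9985111) encodes the heavy chain, which oxidises iron for storage. Its RPKM was 298, 346 and 329 in the brain transcriptome and 138, 138 and 148 in the translatome, a 2.25-fold lower level (log2 fold change -1.17, SE 0.06, adjusted p = 2e-09). In kidney it was 356, 420 and 365 in the transcriptome and 114, 117 and 104 in the translatome (log2 fold change -1.77, SE 0.07, adjusted p = 3.7e-08). The translatome libraries of either organ were thus far below all transcriptome libraries. Ftl1 (chromosome 7, 45457944 to 45459886), the light chain, on which the iron core grows, went from 335, 360 and 347 RPKM to 132, 118 and 126 RPKM in brain (log2 fold change -1.44, SE 0.06, adjusted p = 1.8e-10). In kidney it went from 265, 267 and 246 RPKM to 86.3, 77.7 and 68.4 RPKM (log2 fold change -1.74, SE 0.07, adjusted p = 5.6e-08). RefSeq lists 2 pseudogenes of Fth1 and 3 of ferritin light chains, and reads shared with such copies make the ferritin levels uncertain.

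Slc40a1 (chromosome 1, 45908070 to 45926532), or ferroportin, the exporter of iron from cells, differed little in brain. Its level was 5.27, 6.22 and 5.02 RPKM in the brain transcriptome and 4.60, 4.55 and 3.90 RPKM in the translatome (log2 fold change -0.31, SE 0.10, adjusted p = 0.013). With the replicate block, which pairs the libraries of a tissue sample, the brain value was -0.31 with an adjusted p of 0.000669, which would be a call. The adjusted p ranged from 0.000669 to 0.0671 over the alternatives tried. In kidney the exporter stood at 29.7, 30.7 and 26.9 RPKM in total RNA and at 15.8, 16.6 and 16.2 RPKM in bound RNA (log2 fold change -0.85, SE 0.05, adjusted p = 5.7e-07).

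Of the importers, Tfrc (chromosome 16, 32608896 to 32632794), the receptor that brings transferrin-bound iron into the cell, was lower in bound RNA of both organs. It went from 26.4, 26.4 and 23.3 RPKM to 11.1, 10.7 and 9.59 RPKM in brain, a 2.37-fold decrease (log2 fold change -1.24, SE 0.06, adjusted p = 1.3e-09). In kidney its transcriptome level of 44.9, 45.4 and 44.3 RPKM stood above 24.2, 25.8 and 24.5 RPKM in the translatome (log2 fold change -0.85, SE 0.04, adjusted p = 7.2e-08). The replicates lay close together in each group, and the decrease of Tfrc in brain lay between those of the ferritin chains. Slc11a2 (chromosome 15, 100387898 to 100424209), the divalent metal transporter that moves iron out of endosomes, went from 14.5, 15.7 and 14.3 RPKM to 9.53, 11.1 and 8.82 RPKM in brain (log2 fold change -0.64, SE 0.08, adjusted p = 5.5e-06). Its kidney levels of 21.5, 21.1 and 21.7 RPKM in total and 19.7, 20.7 and 19.3 RPKM in bound RNA were the closest pair of groups among the 7 genes (log2 fold change -0.16, SE 0.04, adjusted p = 0.0048). The replicate block gave -0.16 there with an adjusted p of 0.000444, within a range of 0.000444 to 0.0931 over the alternatives, but in that kidney fit every row took its dispersion from the trend (infinite prior degrees of freedom).

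The regulators were lower in the translatome as well, by smaller amounts. Aco1 had 27.1, 26.8 and 26.1 RPKM in the brain transcriptome and 19.9, 19.6 and 18.2 RPKM in the translatome (log2 fold change -0.44, SE 0.05, adjusted p = 2.5e-06). In kidney it had 35.6, 36.7 and 36.9 RPKM and 23.3, 23.1 and 23.6 RPKM (log2 fold change -0.64, SE 0.04, adjusted p = 2.5e-07). Both groups were tight and apart in either organ. Ireb2, whose protein is removed when iron is plentiful, went from 51.6, 48.4 and 51.3 RPKM to 30.3, 31.1 and 32.1 RPKM in brain (log2 fold change -0.67, SE 0.05, adjusted p = 1.1e-07). In kidney it went from 50.5, 49.0 and 48.7 RPKM to 39.2, 39.1 and 38.3 RPKM (log2 fold change -0.34, SE 0.04, adjusted p = 2.5e-05).

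**Figure D3:**
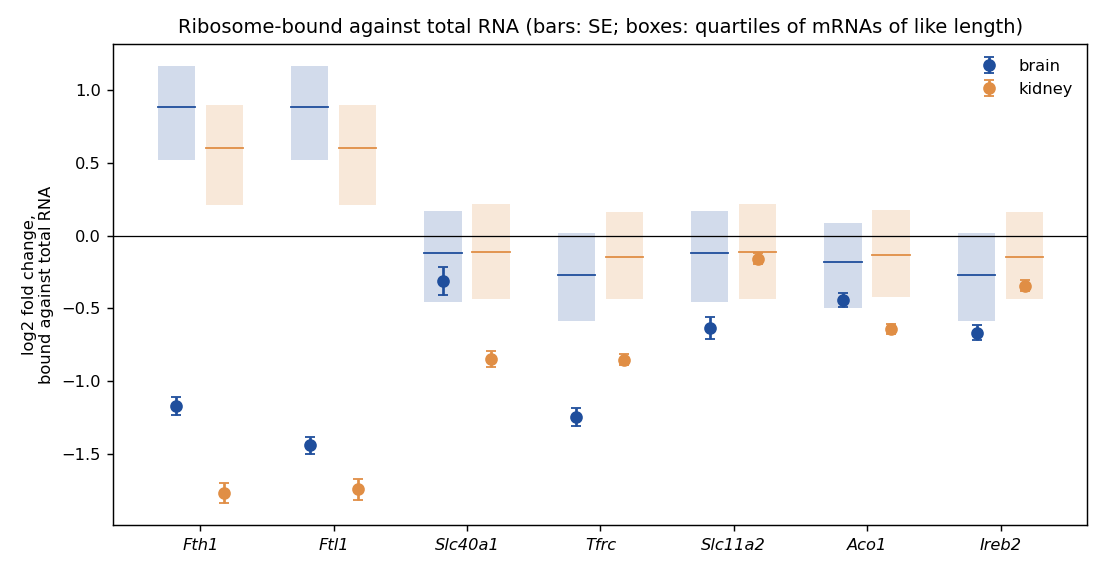
Log2 fold change of the translatome against the transcriptome (points, with SE) in brain and kidney. The boxes give the quartiles, and their lines the median, of mRNAs in the same of 10 groups by transcript length. These groups hold mRNAs above a minimum level in total RNA. Fth1 and Ftl1 stand at -1.17 to -1.77, below boxes that start at 0.52 in brain and 0.21 in kidney.

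Transcript length was examined among the mRNAs above a minimum level in the total RNA of each organ. It moved with this ratio across them and set the ferritins further apart. Fth1 (950 bases) and Ftl1 (978 bases) belong to the shortest of 10 equal groups of these mRNAs ordered by length. The median log2 fold change of that group was 0.88 in brain (quartiles 0.52 and 1.17, 1236 mRNAs) and 0.60 in kidney (quartiles 0.21 and 0.89, 1235 mRNAs). Both ferritins lay below the lower quartile of that group in both organs. Tfrc (4954 bases) and Ireb2 (5855 bases) shared group 9, with medians of -0.27 and -0.15, and Ireb2 lay within the quartiles of that group in kidney. Aco1 in brain, Slc40a1 in brain and Slc11a2 in kidney also lay within the quartiles of their length groups. The part of length in these values was not tested.

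Markers of red blood cells moved in the same direction. The 13 erythroid markers with a row summed to 477 to 907 RPKM in the brain transcriptome and 156 to 247 RPKM in the translatome, and to 825 to 1094 and 107 to 199 RPKM in kidney. Of those tested, 5 of 12 were lower in the brain translatome and 6 of 11 in the kidney translatome, and Hba-a1 was listed at 0 in all 21 libraries and Hbb-b1 in all groups but the brain transcriptome. Their part in the values of the iron genes was not tested. Total and bound RNA came from the same tissue samples, and less tagging of a cell type and less ribosome-bound RNA in it cannot be told apart here.

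Other mRNAs known to carry an IRE differed in direction. Alas2, the erythroid enzyme that starts haem synthesis and whose 5′ UTR held a match, was 11.6-fold lower in the brain translatome (1.07 against 12.5 RPKM, adjusted p = 2.8e-08) and 10.3-fold lower in kidney (1.68 against 17.1 RPKM, adjusted p = 4.4e-07). Epas1, the hypoxia-inducible factor of endothelium, showed the opposite direction, with log2 fold changes of 0.43 in brain (adjusted p = 0.00014) and 0.62 in kidney (adjusted p = 5.7e-06). The brain call of Epas1 was lost without brain translatome replicate 1 or 2 (adjusted p = 0.00156 and 0.00128). Cdc14a, a phosphatase, was lower in brain (-0.73, adjusted p = 7.5e-07) and not called in kidney (-0.22, adjusted p = 0.012). Cdc42bpa, a kinase, had -0.08 in brain (adjusted p = 0.29) and 0.23 in kidney (adjusted p = 0.00033), a call that was lost, at adjusted p values from 0.00125 to 0.00327, without any 1 of kidney transcriptome replicates 1, 2 and 3 and kidney translatome replicate 3.

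Whether the organs differed in the translatome to transcriptome ratio was tested as an interaction over the 12 Sox2Cre libraries, without pairing the libraries of a tissue sample. Of the 7 genes, 2 were called, where 6.47% of all 20108 rows were. The ratio of Fth1 was higher in brain than in kidney (log2 difference 0.58, SE 0.10, adjusted p = 0.00052), and that of Slc11a2 was lower in brain (-0.50, SE 0.08, adjusted p = 0.0005). The call of Fth1 was lost without any 1 of brain transcriptome replicates 1 and 3, brain translatome replicates 1 and 3, kidney transcriptome replicate 2 and kidney translatome replicate 3 (adjusted p = 0.00102 to 0.00157). That of Slc11a2 was lost without brain transcriptome replicates 2 or 3, brain translatome replicates 1 or 3, any kidney transcriptome replicate, or kidney translatome replicates 1 or 2 (adjusted p = 0.00102 to 0.00171). Without brain translatome replicate 3 or kidney transcriptome replicate 2, 0 of the 7 were called by edgeR. The differences of Slc40a1 (0.52, adjusted p = 0.0045), Tfrc (-0.41, adjusted p = 0.0016), Ireb2 (-0.34, adjusted p = 0.0012), Aco1 (0.18, adjusted p = 0.039) and Ftl1 (0.28, adjusted p = 0.056) did not pass. With the replicate block, which pairs the libraries of a tissue sample, 5 were called. Calls rose over all rows too, from 1301 without the block to 3445 with it. Fth1 kept its call there (0.58, adjusted p = 4.69e-08), as did Slc11a2 (-0.50, adjusted p = 9.07e-07). Slc40a1 (0.52, adjusted p = 9.2e-06), Tfrc (-0.41, adjusted p = 4.16e-06) and Ireb2 (-0.34, adjusted p = 4.82e-05) were added. The adjusted p of these 3 reached 0.019, 0.0343 and 0.00534 under other alternatives. With limma, Fth1 and Slc11a2 were not called (adjusted p = 0.00344 and 0.00544). Slc11a2 was also not called in the single fit of all 21 libraries (adjusted p = 0.00119).

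Endothelium, which forms a tight barrier in brain and in parts of the kidney is fenestrated, was compared between the organs in its bound RNA. Of the 7 genes, 4 were higher in brain EC and none was lower, where 20.1% of all 19238 rows were higher. The median log2 fold change of the 7 was 1.00, against 0.01 over all rows. Slc40a1 had the largest difference: 77.9, 71.8 and 71.8 RPKM in brain EC and 9.91, 8.64 and 12.6 RPKM in kidney EC, 7.30-fold higher (log2 fold change 2.87, SE 0.13, adjusted p = 1.8e-08). Fth1 had 551, 616 and 601 RPKM against 105, 133 and 109 RPKM, 5.24-fold higher (log2 fold change 2.39, SE 0.10, adjusted p = 5.8e-09). The exporter and the heavy ferritin chain thus stood far above all kidney EC libraries. The light chain Ftl1 differed less, with 155, 187 and 186 RPKM against 87.1, 102 and 84.2 RPKM (log2 fold change 1.00, SE 0.09, adjusted p = 4.5e-06).

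Among the importers, Tfrc was 2.73-fold higher in brain EC, with 38.2, 26.0 and 26.7 RPKM against 12.3, 10.8 and 11.1 RPKM (log2 fold change 1.45, SE 0.14, adjusted p = 4.9e-06). Brain EC replicate 1 was above the other 2 for Tfrc, and over the replicates left out in turn the log2 fold change was 1.25 to 1.56. Slc11a2 had 13.6, 14.8 and 11.7 RPKM in brain EC and 13.0, 13.5 and 13.7 RPKM in kidney EC, groups that overlapped (log2 fold change -0.05, SE 0.09, adjusted p = 0.62). The regulators did not pass. Aco1 had 21.5, 18.4 and 22.2 RPKM against 16.0, 14.3 and 16.4 RPKM (log2 fold change 0.45, SE 0.09, adjusted p = 0.0013), and Ireb2 had 23.9, 25.1 and 26.9 RPKM against 31.8, 31.6 and 35.1 RPKM (log2 fold change -0.33, SE 0.08, adjusted p = 0.0035). With the replicate block Aco1 was called at 0.45 (adjusted p = 0.000224), as it was with DESeq2, in the single fit and without brain EC replicate 2 (0.53, adjusted p = 0.000208), and its adjusted p ranged from 2.84e-08 to 0.00717 over the alternatives. Ireb2 was called with DESeq2 (-0.33, adjusted p = 0.000368), over a range of 0.000368 to 0.0181.

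Other cells differed between these groups too. Of 16 macrophage markers, 11 were higher in brain EC and 1 was lower, with sums of 50.1 to 52.1 RPKM in brain EC and 29.8 to 34.1 RPKM in kidney EC. The marker lower in brain EC was Hpgd, a prostaglandin-degrading enzyme, which held 17.1 RPKM of the mean sum in kidney EC and 1.17 RPKM in brain EC. The erythroid sums were 123 to 168 and 49.0 to 101 RPKM, with 3 of 11 markers higher in brain EC, and all 9 neural markers were higher in brain EC, with Neurod6 at 0 in kidney EC. Of 10 kidney epithelium and progenitor markers, 7 were lower and 1 was higher in brain EC, with sums of 13.7 to 24.3 RPKM against 82.2 to 103 RPKM in kidney EC. Of 8 pericyte markers, 5 were lower and 1 was higher, with sums of 64.8 to 79.3 RPKM against 112 to 128 RPKM. The part of these cells in the endothelial values was not tested.

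**Figure D4:**
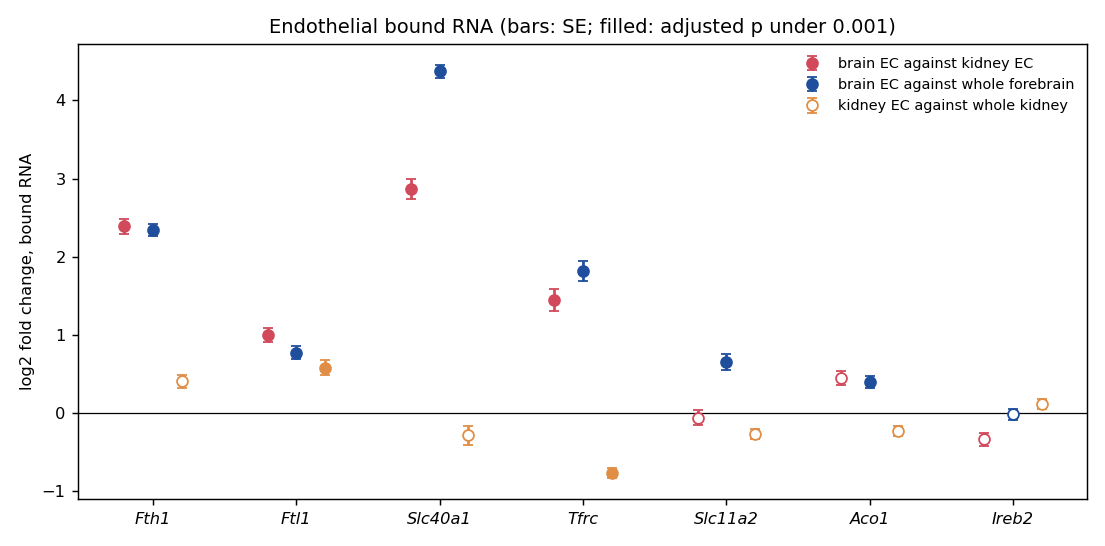
Log2 fold change (points, with SE) of the 7 genes between the bound RNA of brain EC and kidney EC, brain EC and whole forebrain, and kidney EC and whole kidney; filled points are called at an adjusted p under 0.001. Slc40a1 and Fth1 stand highest in both comparisons of brain EC, at 2.87 and 4.37 and at 2.39 and 2.35.

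Each EC translatome was also set against that of its whole organ. In brain EC, 6 of the 7 genes were higher and Ireb2 was not called (log2 fold change -0.01, adjusted p = 0.89), where 24.8% of all 19103 rows were higher. Slc40a1 was 20.7-fold higher in brain EC than in the forebrain (log2 fold change 4.37, SE 0.08, adjusted p = 5e-13), Fth1 was 5.09-fold higher (2.35, SE 0.08, adjusted p = 1.8e-11) and Tfrc 3.53-fold higher (1.82, SE 0.13, adjusted p = 3.2e-08). Ftl1 (0.78, adjusted p = 2.2e-06), Slc11a2 (0.66, adjusted p = 6.9e-05) and Aco1 (0.40, adjusted p = 0.00052) were higher by less. The RPKM of Aco1 overlapped between brain EC (18.4 to 22.2) and the forebrain (18.2 to 19.9). The smaller values depend on the scaling: with total counts in place of TMM factors the median of all rows was -0.30, 36.1% in place of 53.7% of called rows were higher, and Slc11a2 (0.36, adjusted p = 0.00692) and Aco1 (0.10, adjusted p = 0.283) were not called. Slc11a2 was also not called without brain translatome replicate 1 (adjusted p = 0.0022), nor was Aco1 without any 1 of the 3 brain translatome replicates or brain EC replicates 1 and 3 (adjusted p = 0.00168 to 0.00404). Ireb2, at -0.01 with TMM factors, was lower in RPKM in brain EC (23.9 to 26.9, against 30.3 to 32.1 in the forebrain). Its log2 fold change reached -0.31 under the alternatives, and it was not called in any.

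In kidney EC, 1 of the 7 genes was higher, 1 was lower and 5 were not called, where 31.7% of all 18940 rows were called in either direction. Tfrc was lower, with 12.3, 10.8 and 11.1 RPKM in kidney EC and 24.2, 25.8 and 24.5 RPKM in the whole kidney (log2 fold change -0.77, SE 0.07, adjusted p = 2.3e-06). Ftl1 was called higher (0.58, SE 0.09, adjusted p = 0.00024), although its RPKM overlapped, and the call was lost without kidney translatome replicate 2 or 3 (adjusted p = 0.00107 to 0.00207). Fth1 (0.41, adjusted p = 0.0016), Slc40a1 (-0.28, adjusted p = 0.073), Slc11a2 (-0.27, adjusted p = 0.0032), Aco1 (-0.23, adjusted p = 0.014) and Ireb2 (0.11, adjusted p = 0.16) did not pass. These fold changes use TMM factors, which the RPKM do not, so they differ from ratios of RPKM. Mean RPKM of these genes was 116, 10.4, 13.4, 15.6 and 32.9 in kidney EC. In the whole kidney it was 112, 16.2, 19.9, 23.3 and 38.9. Slc40a1 was called without kidney EC replicate 3 (-0.45, adjusted p = 0.000905) and with total counts (-0.65, adjusted p = 0.000432), over a range of 0.000432 to 0.216. Fth1 was called with DESeq2 (0.41, adjusted p = 0.000114), the replicate block and the single fit, and its adjusted p reached 0.695 under other alternatives. With total counts and with limma, Slc11a2 (-0.64 and -0.54, adjusted p = 3.42e-06 and 0.000107) and Aco1 (-0.60 and -0.56, adjusted p = 8.54e-06 and 0.00022) were called, and elsewhere their adjusted p reached 0.0181 and 0.0505. With total counts the median of all rows was -0.41, 21.7% in place of 52.7% of called rows were higher, Ftl1 was at 0.22 (adjusted p = 0.0626), and Ireb2 turned to -0.26.

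The difference between these 2 contrasts was tested as an interaction. Of the 7 genes, 5 had a higher EC to organ ratio in brain than in kidney, where 16.5% of all 19764 rows did, and the median of all rows in that fit was 0.155. The log2 difference was 4.68 for Slc40a1 (SE 0.16, adjusted p = 1.5e-12), 2.61 for Tfrc (SE 0.16, adjusted p = 1.5e-09), 1.97 for Fth1 (SE 0.12, adjusted p = 6.5e-10), 0.95 for Slc11a2 (SE 0.12, adjusted p = 8.7e-06) and 0.65 for Aco1 (SE 0.11, adjusted p = 9.6e-05). Ftl1 (0.22, adjusted p = 0.2) and Ireb2 (-0.10, adjusted p = 0.44) did not pass. The share of higher rows among those called was 65.7%, and 55.5% with DESeq2. All 12 endothelial markers also had a higher ratio in brain, with a median log2 difference of 1.504, and the part of endothelial content in the values of the iron genes was not tested.

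The 2 ferritin chains were not in constant proportion. The ratio of Fth1 to Ftl1 in the same library was 3.56, 3.29 and 3.23 in brain EC, and between 0.892 and 1.57 in the 18 other libraries. The ratio of Ireb2 to Aco1 was 1.11, 1.36 and 1.21 in brain EC and 1.99, 2.22 and 2.14 in kidney EC, with no overlap, and 1.52 to 1.77 in the whole-organ translatomes. Slc40a1 exceeded Tfrc in all 3 brain EC libraries (ratios of up to 2.76) and in 1 kidney EC library (1.14), and was below it in the other 17 libraries. These ratios are descriptions of levels per length, and 3 libraries against 3 were not tested for them.

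**Figure D5:**
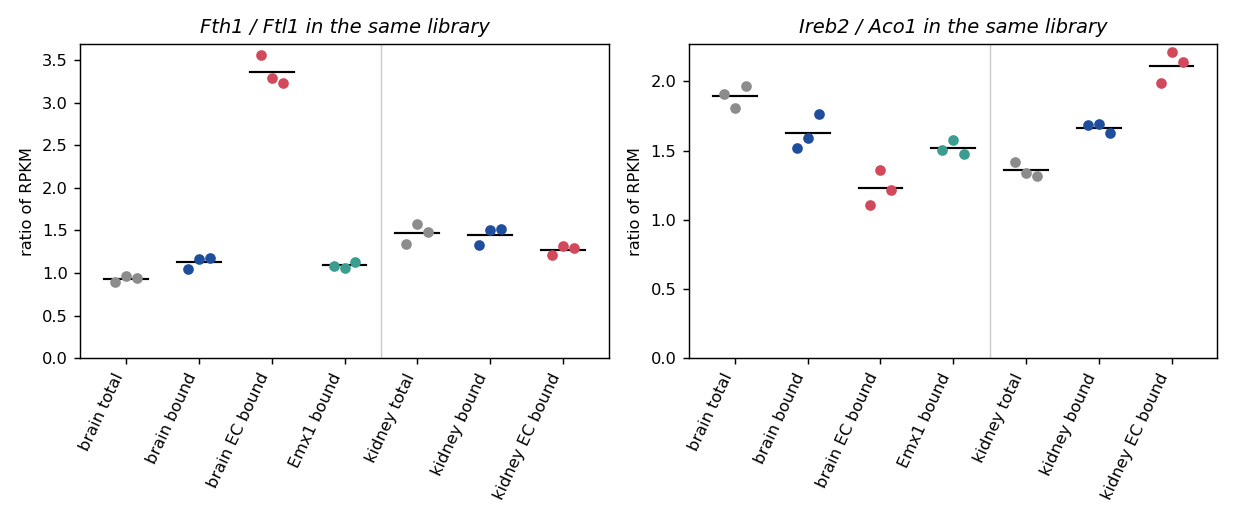
Ratio of RPKM in the same library for Fth1 to Ftl1 and for Ireb2 to Aco1 (points, 3 libraries per group, with the mean as a line). Brain EC stands at 3.23 to 3.56 for the ferritin chains and at 1.11 to 1.36 for the regulators, against 1.99 to 2.22 for the regulators in kidney EC.

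The Emx1 lineage of the forebrain holds mostly cortical progenitors and excitatory neurons, and all 12 endothelial and all 16 macrophage markers were lower in it than in the whole forebrain translatome. Of the 7 genes, 2 were lower and 1 was higher, where 22.1% of all 19006 rows were called in either direction. Slc40a1 was 4.61-fold lower, at 0.809, 0.932 and 1.01 RPKM against 4.60, 4.55 and 3.90 RPKM (log2 fold change -2.20, SE 0.11, adjusted p = 6.5e-10). Tfrc was 1.55-fold lower, at 6.42, 6.71 and 6.42 RPKM against 11.1, 10.7 and 9.59 RPKM (log2 fold change -0.63, SE 0.06, adjusted p = 7.5e-07). Aco1 was called higher (0.24, adjusted p = 0.00085), a call lost without any 1 of the 6 libraries (adjusted p = 0.00129 to 0.00767). Fth1, Ftl1, Slc11a2 and Ireb2 had log2 fold changes of 0.11, 0.16, -0.09 and 0.14 and were not called. Of all called rows 41.7% were higher, against 29.9% with total counts and 18.2% with limma on log2(RPKM + 1).

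In the transcriptomes of the organs, 1 of the 7 genes was higher in brain and 4 were lower, where 53.5% of all 19841 rows were called in either direction. Ftl1 was higher in brain (log2 fold change 0.61, SE 0.05, adjusted p = 7.9e-07). Slc40a1 was 4.64-fold lower (-2.21, adjusted p = 1.3e-09), and Tfrc (-0.64, adjusted p = 4.3e-07), Slc11a2 (-0.39, adjusted p = 1.2e-05) and Aco1 (-0.26, adjusted p = 3.4e-05) were lower as well. Slc40a1 therefore had opposite directions between the organs in total RNA and in EC bound RNA. Fth1 (-0.04, adjusted p = 0.63) and Ireb2 (0.22, adjusted p = 0.0013) were not called. Ireb2 was called with DESeq2 (0.22, adjusted p = 2.25e-05), in the single fit (0.23, adjusted p = 0.000851) and without brain transcriptome replicate 2 (0.25, adjusted p = 0.000366), and its adjusted p reached 0.484 under other alternatives. With total counts the median of all rows was -0.20.

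Across the other iron genes listed (68 with reads, among them the 5 other IRE mRNAs, and genes of uptake and export, storage and sensing, haem, and mitochondrial iron and iron-sulphur clusters), no common direction was seen in the translatome. In brain 21 were higher and 15 lower of 68 tested, where 18.6% and 18.5% of all rows were, with a median log2 fold change of 0.18. Without brain translatome replicate 1 the number higher was 13. In kidney 14 were higher and 12 lower of 67, where 14.9% and 15.8% were, with a median of -0.10, and with the replicate block 21 were lower. Iscu, the scaffold of iron-sulphur cluster assembly, had log2 fold changes of 1.07 in brain (adjusted p = 6.7e-08) and 0.99 in kidney (adjusted p = 4.2e-06). Fam96b, a cytosolic cluster targeting factor, had 1.39 (adjusted p = 1.8e-09) and 0.98 (adjusted p = 8.1e-07). In brain, Glrx5, a cluster transfer protein (1.37, adjusted p = 2e-10), and Cisd1, a cluster protein of the outer mitochondrial membrane (1.29, adjusted p = 8.6e-10), were higher, and in kidney Isca1 (1.01, adjusted p = 7.1e-07) and Isca2 (0.98, adjusted p = 4.3e-06) were. Of the 22 genes listed for mitochondrial iron and iron-sulphur clusters, 11 were higher and 5 lower in brain, and 9 and 5 in kidney. The other iron genes were not set against mRNAs of like length. Lower in both organs were Mms19, a partner of Fam96b (-1.37 and -1.02, adjusted p = 1.4e-09 and 4.4e-07), and Ppox, an enzyme of haem synthesis (-1.34 and -1.24, adjusted p = 4.1e-07 and 9e-05). The erythroid mitochondrial iron importer Slc25a37 was lower in brain (-1.86, adjusted p = 8.6e-10), and Slc22a17, a receptor for the iron carrier lipocalin, was lower in kidney (-1.52, adjusted p = 1.5e-08).

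Between brain EC and kidney EC, 14 of 67 were higher and 12 lower, where 20.1% and 16.9% of all rows were, with a median log2 fold change of -0.08. The uptake and export group held 8 of the higher genes and 4 of the lower, of 20 tested. Slc39a8, a metal importer of the ZIP family, had the largest difference, 130 against 4.26 RPKM, 31.3-fold higher (log2 fold change 4.97, SE 0.08, adjusted p = 1.5e-11). Bmp6, the endothelial signal that induces hepcidin in liver, stood at 9.22 against 0.715 RPKM (3.72, adjusted p = 5.2e-09). Steap3, an endosomal ferrireductase (5.79-fold, adjusted p = 6.4e-08), and Hfe, a partner of the transferrin receptor (2.83-fold, adjusted p = 1.2e-07), were also higher, as was the haem and drug exporter Abcg2 (2.60-fold, adjusted p = 3e-08). Among other IRE mRNAs, Epas1 was higher (162 against 60.0 RPKM, 2.78-fold, adjusted p = 6.1e-08), Cdc14a was lower (-1.42, adjusted p = 2.2e-07), and Alas2 (-0.02) and Cdc42bpa (0.17) were not called. Slc25a37 was lower in brain EC (-2.06, adjusted p = 2.5e-08).

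Over the 21 libraries, which share groups and their large differences, the genes most like 6 of the 7 were sought by Pearson's r of log2(RPKM + 1) among 10226 rows. They were Ap2a2 for Ftl1 (0.973), Ctsa for Slc40a1 (0.993), Zdhhc1 for Tfrc (0.965), Tor1b for Slc11a2 (0.965), Gpam for Aco1 (0.962) and Cpsf6 for Ireb2 (0.985). Among the 7 themselves r was highest between Tfrc and Slc11a2 (0.843), followed by Slc40a1 and Tfrc (0.797) and the 2 ferritin chains (0.775). It was lowest between Slc40a1 and Ireb2 (-0.138).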

How the data were processed

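RNA of 21 E14.5 libraries in 7 groups of 3 was analysed. Reads were aligned by the authors to GRCm38 (mm10) using RUM, and they deposited the read count per RefSeq gene, without normalization, from the rpkmforgenes program. The deposited RPKM values were computed by the authors with the same program, and they scale with the reads on mRNA rows. From these files, the counts went into the quasi-likelihood test of edgeR 4.0.16 (R 4.3.3), after TMM scaling, over rows with at least 1 count in the libraries of a comparison, with Benjamini-Hochberg adjustment over all rows and a threshold of 0.001. The SE is the log2 fold change divided by the root of F. The test was checked on simulated counts for brain bound against total RNA and for brain EC against kidney EC. Those counts held no pairing, and the interactions were not simulated. Replicates are labelled as separate samples, and pooling of embryos differed, so p-values measure the spread between these samples. Each of the 7 genes had between 100 and 32522 reads per library.

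Same-numbered Sox2Cre libraries came from 1 tissue sample, per the supplementary sample list. Their deviations from the group means correlated at 0.461, 0.386 and 0.617 in brain and 0.623, 0.552 and 0.576 in kidney. Brain EC and kidney EC libraries of the same number correlated at 0.347, 0.193 and 0.173, although they came from different organs. The alternatives were DESeq2 1.42.0, limma 3.58.1 on log2(RPKM + 1), other size factors, mRNA rows only, at least 10 counts in 3 samples, the replicate block, 1 fit of all 21 libraries, a threshold of 0.05, and each replicate left out. Applying them to the other iron genes as well was chosen after seeing the data.

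All 7 genes were described. Of the other iron genes, the 8 with the largest absolute log2 fold change per comparison (called, groups apart, at least 5 RPKM in a group) and each other IRE mRNA were named. Some results that these rules select are not reported here. The genes and lists were chosen with earlier results of these data known. Hairpins were read from GENCODE vM21 transcripts and gene positions from RefSeq on GRCm38. Protein sequences were not used here. Python 3.11.15, pandas 2.3.3, numpy 2.4.6 and matplotlib 3.10.9 were used for tables and figures.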

Additional observations from a re-analysis of the deposited data

Results flagged for a closer look

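The change from total to bound RNA differed between the organs, by the unpaired interaction test in edgeR, for Fth1 (log2 difference of brain minus kidney 0.58, adjusted p = 0.00052) and for Slc11a2 (-0.50, adjusted p = 0.0005). With a replicate left out, these calls were lost in 6 of 12 fits for Fth1 and 9 of 12 for Slc11a2, and both were lost with limma. By an interaction test in edgeR, the difference between EC and whole-organ bound RNA was greater in brain than in kidney for Slc40a1 (4.68), Tfrc (2.61), Fth1 (1.97), Slc11a2 (0.95) and Aco1 (0.65).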

How the results depend on the processing

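Of the log2 fold changes of the 7 genes, 506 of the values under other settings and 421 of those with a replicate left out kept their direction and their side of the threshold. Under other settings, 39 values gained a call, 19 lost one and 3 turned in direction. With a replicate left out, 7 gained a call, 29 lost one and 5 turned. Rows called at an adjusted p under 0.05 were 10855 in brain and 9754 in kidney for bound against total RNA, 4647 for the organ difference, 11469 for brain EC against kidney EC, 10509 for kidney EC against kidney, 8522 for the EC interaction and 8580 for Emx1, and the genes of the 7 called then were 6 for the organ difference, 5 for kidney EC and 5 for Emx1. With the replicate block, rows called rose to 9496 in kidney (8932 in brain) and 3445 for the organ difference, in which 5 of the 7 were called, and in DESeq2 the latter were 2669 rows and 5 genes. The block changed no call of the 7 in these paired comparisons other than those given in the text. With limma 1 of the 7 was called in the organ difference, 3 in brain EC against brain and 2021 rows in Emx1. The single fit called 1 in the organ difference, and total counts called 4 in kidney EC. Values near 0 turned: Slc11a2 between the ECs to 0.0623 and Alas2 to 0.10 in the single fit, and Ireb2 in kidney EC to -0.26 with total counts and -0.24 with limma. With a replicate left out, the organ difference held 0 to 3 of the 7 and 850 (without kidney transcriptome replicate 2) to 1248 rows, and kidney EC 1 to 3 of the 7. Slc11a2 between the ECs ranged from -0.139 to 0.0390, Alas2 from -0.18 to 0.10, Ireb2 in brain EC against brain from -0.0621 to 0.0307, and Fth1 in brain against kidney total RNA from -0.0895 to 0.0385. The cause was not tested.

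In the comparisons of EC or Emx1 with the whole organ and of the transcriptomes, the replicate numbers did not pair the libraries (same-number correlations from -0.0885 to 0.495, with 2 or 3 of 6 libraries nearest to their own number), and the block gave 8678 rows in brain EC, 5483 in kidney EC, 3132 in Emx1 and 10405 between transcriptomes.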
